A study of Mus musculus with 64 samples.

Results

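Scin, Hdac9, Acp1, Adi1, Tspan13, Arl4a and Hbp1 are 7 genes of mouse chromosome 12 that lie within 10 Mb of Ahr, the gene of the aryl hydrocarbon receptor (AhR). They were chosen because their RNA differed between bone marrow-derived macrophages (BMMs) of Ahr-/- and Ahr+/+ mice in earlier results of these libraries. All 7 had enough counts to be tested, and they are 7 of the 54 tested genes within 10 Mb of Ahr and of 14537 tested genes in all, out of 55487 counted. The difference between the genotypes chose them and is therefore described here without a test. What was tested is how their RNA responded, within each genotype, to AhR ligands and to activation, and whether these responses or the genotype difference changed between conditions. The latter tests use the differences that chose the genes and are not independent of the choice.

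The series holds 64 RNA-seq libraries of BMMs in 16 groups of 4. BMMs were grown from bone marrow of Ahr+/+ C57BL/6JRj mice, which were female, and of Ahr-/- mice of a knockout line crossed back to C57BL/6JRj in-house, all 8 to 12 weeks old. BMMs of each genotype were exposed for 6 h to benzo[a]pyrene (BaP, 1 µM), to indole-3-carbinol (I3C, 10 µM) or to the vehicle DMSO (0.01%), and were then activated for 3 h or 20 h with 10000000 heat-killed Salmonella Enteritidis (hk S.E.) per ml. The remaining group of each genotype and time received DMSO and no hk S.E., so a ligand was never given without activation and every ligand comparison shares its DMSO libraries with the activation comparison of the same genotype and time. The deletion was present in all cells of the mice from the start of life. The number of crosses back to C57BL/6JRj is not given in the sources used here. The methods name 4 mice per genotype, but the labels do not tie a library to a mouse. If libraries of a group share a mouse, the p-values below measure technical spread.

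AhR is a transcription factor of the basic helix-loop-helix PAS family that waits in the cytosol, moves to the nucleus when it binds a ligand such as BaP or an I3C product, and pairs with ARNT on AhR response elements (AHREs) of target genes. The AhR repressor gene Ahrr is one of its direct targets. A knockout allele made in embryonic stem cells is inherited with the DNA around it, and crossing back to another strain removes this flanking DNA from the stem cell strain only slowly, so genes linked to the knocked-out gene can differ between knockout and wild type through their own sequence. A response to a ligand or to activation is read within a genotype, whereas a need for the receptor is read from the genotypes together. For a linked gene, a difference between the genotypes can be the same in all conditions or change with them. In both cases loss of AhR and flanking DNA cannot be told apart in these groups.

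The members have unrelated roles. Scin encodes scinderin, also called adseverin, a calcium-dependent protein of the gelsolin family that severs and caps actin filaments. Hdac9 encodes a class IIa histone deacetylase that represses MEF2-dependent transcription. Acp1 encodes the low-molecular-weight phosphotyrosine phosphatase, and Adi1 encodes acireductone dioxygenase, an enzyme that returns carbon of methylthioadenosine to methionine. Tspan13 encodes a membrane protein of the tetraspanin family, Arl4a a small GTPase related to the ARF proteins of membrane traffic and cytoskeleton, and Hbp1 an HMG-box transcription factor that represses cell cycle genes.

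In GRCm38 coordinates, Ahr (ENSMUSG00000019256.17) lies on the minus strand of chromosome 12 at 35497974 to 35535038. Before it, at lower coordinates, lie Adi1 (ENSMUSG00000020629.12) at 28675231 to 28682175 on the plus strand, and Acp1 (ENSMUSG00000044573.16) at 30893326 to 30911589, Hbp1 (ENSMUSG00000002996.17) at 31926254 to 31950535 and Hdac9 (ENSMUSG00000004698.10) at 34047580 to 34917095 on the minus strand. After it, all on the minus strand, lie Tspan13 (ENSMUSG00000020577.17) at 36014557 to 36042500, Arl4a (ENSMUSG00000047446.18) at 40005447 to 40038025 and Scin (ENSMUSG00000002565.16) at 40059769 to 40134228. The nearest members are Tspan13 and Hdac9, with gaps to Ahr of 0.480 and 0.581 Mb. The gaps of Hbp1, Arl4a, Scin, Acp1 and Adi1 are 3.55, 4.47, 4.52, 4.59 and 6.82 Mb. Arl4a has an antisense neighbour, Arl4aos, which does not overlap it in the annotation.

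Promoter sequences were searched for the core of the AHRE, the letters that AhR with ARNT recognises in known targets. A match describes the sequence and does not show binding. The windows run from 250 bases before to 50 bases after an annotated start (RefSeq, GRCm38.p6, written along the gene's strand). They are shown for the members on which the comparisons turn, with Ahrr as the known target. Capitals mark the core GCGTG, searched on both strands, or CACGC where the core lies on the opposite strand.
Scin, chr12:40134179-40134478, minus strand: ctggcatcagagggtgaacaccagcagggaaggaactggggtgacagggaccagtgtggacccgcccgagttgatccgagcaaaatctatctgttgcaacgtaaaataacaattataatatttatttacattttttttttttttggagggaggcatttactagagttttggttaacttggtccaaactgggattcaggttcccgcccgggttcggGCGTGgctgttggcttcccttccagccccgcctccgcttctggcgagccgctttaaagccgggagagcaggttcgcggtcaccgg
Hdac9, chr12:34917046-34917345, minus strand: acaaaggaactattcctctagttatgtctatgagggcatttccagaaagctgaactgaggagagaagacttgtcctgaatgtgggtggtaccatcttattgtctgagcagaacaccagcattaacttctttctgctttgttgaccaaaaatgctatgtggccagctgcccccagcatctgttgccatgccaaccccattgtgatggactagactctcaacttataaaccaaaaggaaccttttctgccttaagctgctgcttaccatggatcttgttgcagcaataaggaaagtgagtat
Acp1, chr12:30911563-30911862, minus strand: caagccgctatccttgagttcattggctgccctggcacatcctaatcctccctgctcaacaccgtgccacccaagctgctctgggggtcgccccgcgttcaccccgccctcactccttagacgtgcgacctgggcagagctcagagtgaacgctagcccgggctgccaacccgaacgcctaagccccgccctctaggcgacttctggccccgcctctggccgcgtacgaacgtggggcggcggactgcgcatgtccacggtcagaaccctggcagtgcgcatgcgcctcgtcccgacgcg
Arl4a, first start, chr12:40037938-40038237, minus strand: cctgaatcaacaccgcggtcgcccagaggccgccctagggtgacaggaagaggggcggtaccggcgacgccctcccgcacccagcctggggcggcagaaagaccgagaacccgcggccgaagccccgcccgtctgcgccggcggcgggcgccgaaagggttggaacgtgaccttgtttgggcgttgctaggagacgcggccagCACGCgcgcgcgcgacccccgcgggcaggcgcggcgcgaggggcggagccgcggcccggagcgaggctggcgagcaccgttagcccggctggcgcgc
Arl4a, second start, chr12:40037327-40037626, minus strand: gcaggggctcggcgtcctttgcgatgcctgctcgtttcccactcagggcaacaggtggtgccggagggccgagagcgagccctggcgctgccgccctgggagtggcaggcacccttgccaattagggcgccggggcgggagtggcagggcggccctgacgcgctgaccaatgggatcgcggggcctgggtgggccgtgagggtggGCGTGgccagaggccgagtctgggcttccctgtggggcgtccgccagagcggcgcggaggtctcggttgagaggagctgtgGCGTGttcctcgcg
Ahrr, chr13:74292282-74292581, minus strand: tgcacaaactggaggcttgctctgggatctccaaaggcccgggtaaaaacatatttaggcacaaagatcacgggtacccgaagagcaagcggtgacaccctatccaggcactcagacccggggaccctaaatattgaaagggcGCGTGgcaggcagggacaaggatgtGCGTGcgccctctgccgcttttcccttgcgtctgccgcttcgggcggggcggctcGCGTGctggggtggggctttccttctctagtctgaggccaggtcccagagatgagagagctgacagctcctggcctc

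The Scin window holds 1 core, 35 bases before the start. Arl4a holds 1 core 47 bases before its first start and 2 cores at its second start, at 45 bases before and 36 bases after it. The Hdac9 and Acp1 windows printed here hold none, and neither do the second Hdac9 window and the Tspan13 and Hbp1 windows. Thus 2 of the 6 members with a window, or 3 of their 8 windows, hold the core, where 32.4% of all 32851 windows do and the Ahrr window holds 3. The longer AHRE II motif, also searched on both strands, was found in 1.65% of all windows and in no window of a member. Adi1 was not matched to a window. The paper searched a longer stretch before each start, so a window without the core does not show that a member lacks an AHRE.

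Libraries held 12152496 to 50644601 counts on genes, except 1 library of Ahr+/+ BMMs with DMSO alone at 20 h with 233047331. Levels are given as CPM, the gene's counts scaled to a common size of the TMM-normalised library, and differences as log2 fold changes of a quasi-likelihood model over all 64 libraries (edgeR), with SE. A gene was called at an adjusted p below 0.01. Macrophage markers summed to 18609 to 35732 CPM over all libraries, and the summed T cell, B cell and mast cell markers did not exceed 0.984 CPM. Fibroblast markers had medians of 0.542 CPM (0 to 2.71) in Ahr+/+ and 1.98 CPM (0.170 to 7.88) in Ahr-/- libraries. Of 5 neutrophil markers 2 were tested, and both rose with activation at 3 h in both genotypes. The list summed to 1.69 to 61.7 CPM in Ahr+/+ and 2.87 to 37.3 CPM in Ahr-/- libraries, with medians of 7.03 and 6.96 CPM. The platelet-lineage genes Pf4 and Itga2b summed to 12.7 to 138 CPM in Ahr+/+ and 9.09 to 72.7 CPM in Ahr-/- libraries, with medians of 82.8 and 49.5 CPM. The part of these differences in the results below was not tested.

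The labels give library identifiers whose leading characters form series. At 20 h all 16 Ahr-/- libraries carry identifiers of 1 series and all 12 activated Ahr+/+ libraries those of another, so in the activated groups at 20 h identifier series and genotype cannot be told apart. No activated Ahr-/- library at 3 h is of the series of the Ahr-/- libraries at 20 h. Time and series therefore cannot be told apart in the activated Ahr-/- groups. This also limits every comparison of genotype differences between 3 h and 20 h. At 3 h both genotypes have libraries of 1 shared series in every condition, and within it 20 of 28 differences of the members were lower in Ahr-/- BMMs, against 21 of 28 with all libraries. These differences chose the genes, so the 2 counts are a description without a share of all genes beside them. They do not bear on the groups at 20 h.

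The targeted gene was read first. Its gene-level count covers all exons of Ahr and so does not show the deleted part. With DMSO alone at 3 h, Ahr stood at 3.90, 4.67, 3.01 and 1.09 CPM in Ahr+/+ and at 9.47, 6.62, 5.32 and 5.11 CPM in Ahr-/- libraries. Its level was thus higher in all Ahr-/- libraries of this condition, and the same held in each of the 8 conditions, by 0.86 to 1.33 log2 units. Ahrr was the working check of the receptor. In activated Ahr+/+ BMMs at 3 h it stood at 0.562, 0.566, 0.346 and 0.582 CPM with DMSO and at 4.18, 6.96, 4.79 and 5.56 CPM with BaP, which is a rise of 3.36 ± 0.26 log2 units (adjusted p = 7.13e-14, edgeR). In activated Ahr-/- libraries at 3 h its levels were 0.125 to 0.319 CPM with DMSO and 0 to 0.285 CPM with BaP, a log2 fold change of -0.33 (95% interval -1.25 to 0.59). Ahrr rose with both ligands at both times in Ahr+/+ BMMs and was called in none of the 4 ligand comparisons in Ahr-/- BMMs.

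Whether the members respond to AhR ligands was asked by comparing BaP or I3C with DMSO in activated BMMs. None of the 7 members was called in any of the 4 comparisons in Ahr+/+ BMMs, by edgeR or by DESeq2. Among all tested genes, edgeR called 0.0482% (BaP) and 0.131% (I3C) at 3 h and 0.234% (BaP) and 0.509% (I3C) at 20 h. Shares of all genes called by DESeq2 are not given, here or below. The paper, which used DESeq2 at the same threshold, reports more AhR-dependent genes for each ligand and time than edgeR called here. With shares this low, a count of 0 among 7 genes says little about the members. At an unadjusted p below 0.05 the count was 2 of 28 pairs of member and comparison (2.68%, 5.12%, 10.4% and 5.72% of all genes, in the same order), both of Arl4a at 20 h. The 95% intervals of the 4 comparisons bound the response that could have gone uncalled. From the lowest lower limit to the highest upper limit, which can belong to different comparisons, they ran from -0.32 to 0.26 log2 units for Acp1, from -0.35 to 0.41 for Hbp1, from -0.64 to 0.45 for Adi1, from -0.69 to 0.45 for Hdac9, from -0.56 to 0.77 for Tspan13, from -0.82 to 0.88 for Scin and from -0.31 to 0.84 for Arl4a. Ahrr changed by 1.51 to 3.36 log2 units in the same comparisons. Of 4 tested genes in a list of AhR targets, it was the 1 that edgeR called there. The paper reports the target Nqo1 as raised by both ligands at both times. Here Nqo1 changed by 0.75 (BaP) and 0.71 (I3C) log2 units at 3 h and by 0.75 and 1.13 at 20 h. Its adjusted p lay between 0.0112 and 0.940 (edgeR), so a known target can go uncalled in these comparisons.

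Arl4a was the member with the lowest adjusted p for a ligand. In activated Ahr+/+ BMMs at 20 h it stood at 5.12, 5.30, 4.21 and 5.79 CPM with DMSO, at 7.30, 7.36, 6.72 and 8.30 CPM with BaP, and at 6.99, 7.27, 7.58 and 6.36 CPM with I3C. All libraries with a ligand lay above all DMSO libraries. The log2 fold change was 0.54 ± 0.15 with BaP (adjusted p = 0.0687, edgeR) and 0.46 ± 0.15 with I3C (adjusted p = 0.213, edgeR), and both miss the threshold. Over the alternatives and the removal of each library, the adjusted p for BaP lay between 0.00653 and 0.269. In Ahr-/- BMMs at 20 h, Arl4a stood at 5.60, 5.43, 5.30 and 6.49 CPM with DMSO and at 4.66, 5.68, 6.45 and 6.03 CPM with BaP, and these libraries overlap. The difference of the BaP effects between the genotypes was -0.54 ± 0.21 log2 units (adjusted p = 0.826, edgeR), with an interval of -0.96 to -0.12.

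In Ahr-/- BMMs, 0 of 28 pairs of member and comparison were called with a ligand by edgeR or DESeq2, beside 0.0275% (BaP, 3 h), 0.0206% (I3C, 3 h), 0.0138% (BaP, 20 h) and 0.206% (I3C, 20 h) of all genes in edgeR. An unadjusted p below 0.05 was held by 5.93%, 5.92%, 1.77% and 4.62% of all genes in the same order. Among the members there was 1, Hdac9 with I3C at 20 h, with 1.29, 0.567, 0.706 and 1.21 CPM against 1.58, 1.76, 1.29 and 1.34 CPM with DMSO. The lowest DMSO and the highest I3C library overlap at 1.29 CPM, and the log2 fold change was -0.63 (adjusted p = 0.648, edgeR). The difference of ligand effects between the genotypes was called for 0 of 28 pairs by either tool, with 1 at an unadjusted p below 0.05, and edgeR called 0.0138% of all genes for BaP at 3 h and 0% in the other 3 comparisons. Of all genes, 2.56% (BaP) and 1.66% (I3C) at 3 h and 4.67% (BaP) and 1.97% (I3C) at 20 h had an unadjusted p below 0.05 there. The Scin intervals in Ahr-/- BMMs ran from -2.47 to 3.79 log2 units, where its counts summed to 1 to 5 in an activated group at 20 h.

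**Figure D1:**
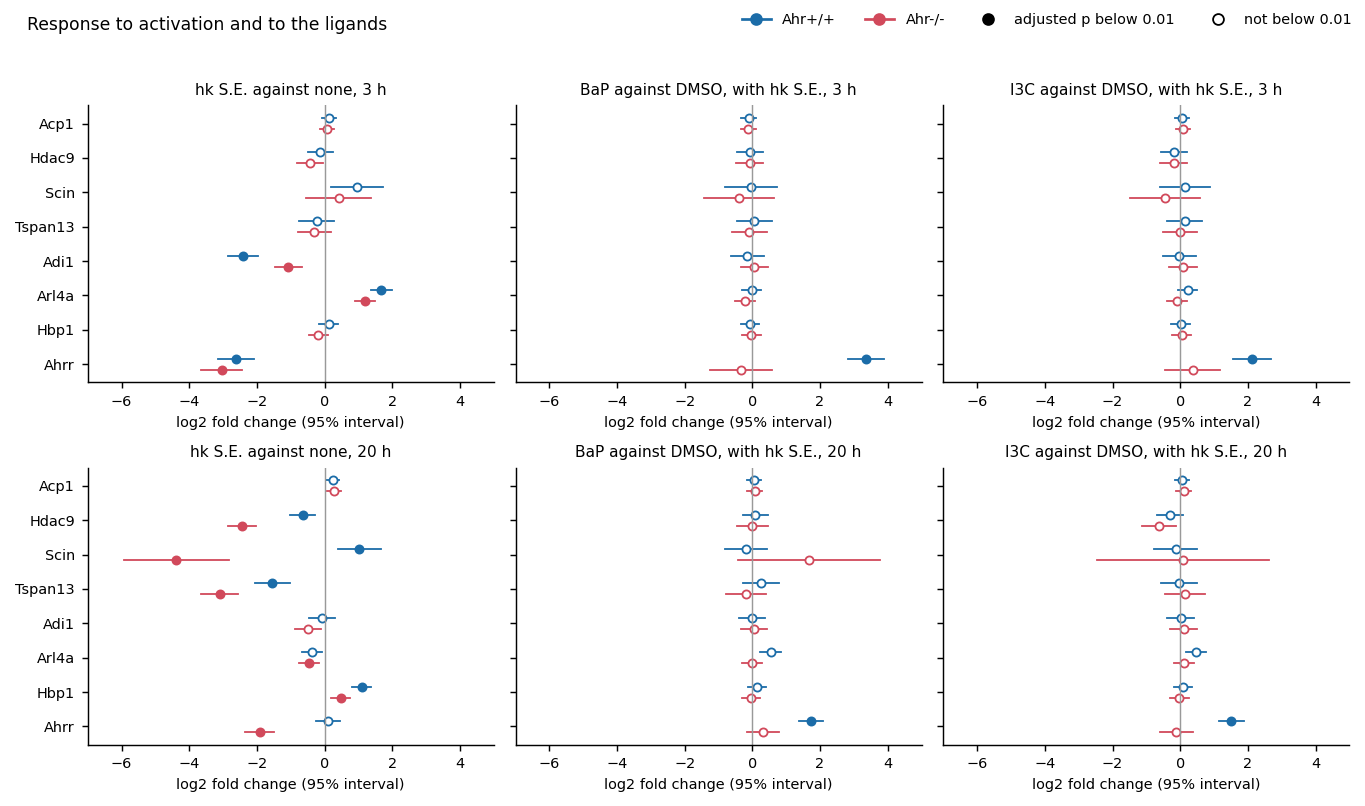
Log2 fold change (point) and 95% interval (line) of each member and of Ahrr with hk S.E. against no activation (left), BaP against DMSO (middle) and I3C against DMSO (right), at 3 h (top) and 20 h (bottom), in Ahr+/+ (blue) and Ahr-/- (red) BMMs. Filled points had an adjusted p below 0.01. In the ligand panels the filled points are the 4 of Ahrr in Ahr+/+ BMMs, from 1.51 to 3.36, and no member is filled.

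Activation was asked next, by comparing hk S.E. with no hk S.E. after DMSO. Of 28 pairs of member and comparison, 13 were called, 5 of them higher and 8 lower with hk S.E. At 3 h these were 2 of 7 members in Ahr+/+ BMMs, where 56.6% of all genes were called (24.2% higher, 32.3% lower), and 2 of 7 in Ahr-/- BMMs, where 57.3% were (25.5% higher, 31.8% lower). At 20 h they were 4 of 7 in Ahr+/+ (58.6% of all genes, 29.9% higher and 28.7% lower) and 5 of 7 in Ahr-/- BMMs (54.3%, 28.3% higher and 26% lower). The counts of members lie near these shares at 20 h and below them at 3 h. Adi1 fell and Arl4a rose at 3 h in both genotypes, while Hbp1 rose and Hdac9 and Tspan13 fell at 20 h in both genotypes. Scin rose in Ahr+/+ and fell in Ahr-/- BMMs at 20 h.

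**Figure D2:**
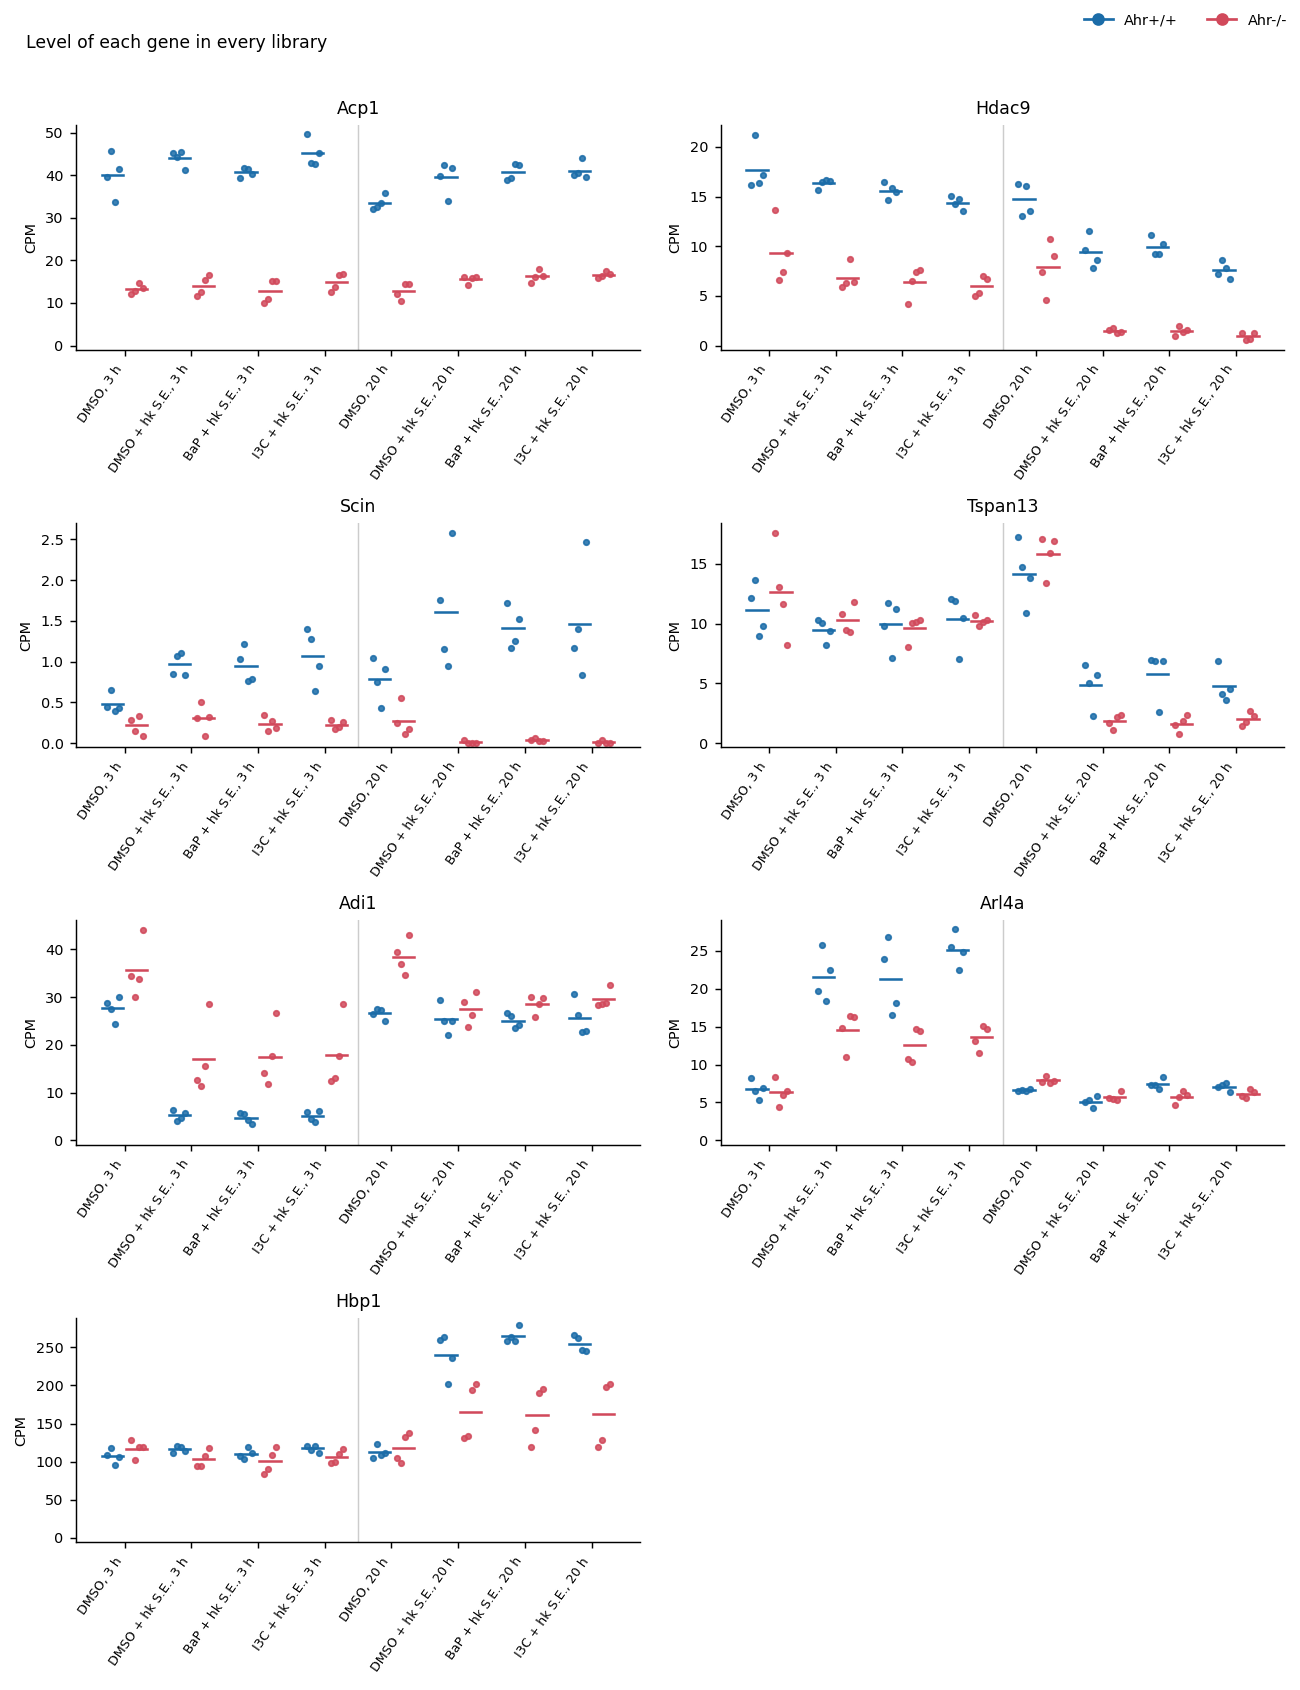
CPM of each member in every library (point) and the mean of 4 libraries (line), for 8 conditions along the x axis, in Ahr+/+ (blue) and Ahr-/- (red) BMMs. The Acp1 levels form 2 bands that do not meet, at 32.0 to 49.7 and 10.0 to 17.9 CPM, whereas the distance between the genotypes changes with the condition for Scin, Hdac9, Tspan13, Adi1, Arl4a and Hbp1.

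The genotypes were then set side by side in each condition. Of all tested genes, 1.21% were called between the genotypes with DMSO alone at 3 h, 0.702% with DMSO alone at 20 h, 2.83%, 4.88% and 2.85% after DMSO, BaP and I3C with hk S.E. at 3 h, and 12.5%, 23.3% and 15.6% at 20 h. These are shares of calls. The share of all genes whose libraries do not overlap is another measure and is not given here. Nothing is read from the counts of conditions without overlap given for each member, since this contrast chose the genes.

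Acp1, the phosphatase, differed between the genotypes in every condition, by somewhat more at 3 h than at 20 h. With DMSO alone at 3 h it stood at 39.6, 45.6, 33.6 and 41.5 CPM in Ahr+/+ and at 12.04, 12.9, 14.8 and 13.6 CPM in Ahr-/- libraries. In BMMs activated for 20 h after DMSO the values were 39.8, 42.4, 33.9 and 41.7 CPM against 16.02, 14.3, 15.8 and 16.1 CPM. No Ahr-/- library reached an Ahr+/+ library in any condition. The log2 fold change between genotypes lay between -1.66 and -1.59 at 3 h and between -1.37 and -1.30 at 20 h. Over all conditions Acp1 was 3.17 to 2.46 times lower in Ahr-/- BMMs. In bulk RNA, fewer cells of a type and less RNA per cell cannot be told apart. Within a genotype, the highest group mean of Acp1 was 1.35 times the lowest in Ahr+/+ and 1.30 times in Ahr-/- BMMs, and all neighbours in the order of the group means overlapped.

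The activation difference of Acp1 was 0.24 ± 0.10 log2 units in Ahr+/+ BMMs at 20 h (adjusted p = 0.0369, edgeR) and 0.27 ± 0.11 in Ahr-/- BMMs (adjusted p = 0.0226, edgeR). Neither passed the threshold. Same-numbered Ahr-/- libraries deviate together at 20 h, and a fit blocked on that number called the Ahr-/- value, 0.28 (adjusted p = 0.00205, edgeR). The difference of the activation effects between genotypes was 0.03 (95% interval -0.26 to 0.33) at 20 h and -0.06 (-0.36 to 0.24) at 3 h.

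Hdac9, a class IIa deacetylase and the member nearest to Ahr on its side, was lower in Ahr-/- BMMs in all 8 conditions, and by more after long activation. With DMSO alone at 20 h it stood at 16.3, 13.1, 16.1 and 13.5 CPM in Ahr+/+ and at 7.45, 4.58, 10.8 and 9.04 CPM in Ahr-/- libraries. After 20 h of activation these were 9.66, 11.5, 7.83 and 8.56 CPM against 1.58, 1.76, 1.29 and 1.34 CPM. The genotypes did not overlap in any condition, with log2 fold changes of -0.86 to -1.27 in the conditions at 3 h and without hk S.E. and of -2.66 to -2.97 after 20 h of activation. At 20 h Hdac9 fell with activation in both genotypes, with log2 fold changes of -0.65 ± 0.18 in Ahr+/+ (adjusted p = 0.00164, edgeR) and -2.44 ± 0.21 in Ahr-/- BMMs (adjusted p = 3.73e-15, edgeR). The call in Ahr+/+ BMMs rests on replicate 3 of the activated libraries, without which the log2 fold change was -0.57 (adjusted p = 0.0111, edgeR). At 3 h Hdac9 was not called in Ahr+/+ (-0.12, interval -0.49 to 0.25) or in Ahr-/- BMMs (-0.44, interval -0.82 to -0.05).

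Scin, the actin-severing protein, had the widest difference between the genotypes and low counts. With DMSO alone at 3 h it stood at 0.438, 0.652, 0.395 and 0.427 CPM in Ahr+/+ and at 0.285, 0.150, 0.335 and 0.0904 CPM in Ahr-/- libraries. After 20 h of activation, Ahr+/+ libraries held 1.75, 1.16, 0.943 and 2.58 CPM, and Ahr-/- libraries held 1, 0, 0 and 0 counts. All Ahr+/+ libraries lay above all Ahr-/- libraries in 7 of 8 conditions, and the exception was DMSO alone at 20 h, with 1.05, 0.754, 0.426 and 0.904 CPM against 0.247, 0.557, 0.115 and 0.171 CPM. The counts of the activated groups at 20 h summed to 221 in Ahr+/+ and 1 in Ahr-/- BMMs with DMSO, 186 and 5 with BaP, and 155 and 1 with I3C. The ratio of the pooled CPM was 242 with DMSO (95% counting interval 43.4 to 9549), 44.4 with BaP (19.0 to 137) and 197 with I3C (35.4 to 7780), which covers counting error of the Ahr-/- counts only. In the other conditions Scin was 2.22 to 4.89 times lower in Ahr-/- BMMs by the same ratio.

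Scin responded to activation in opposite directions. In Ahr+/+ BMMs at 20 h it rose by 1.03 ± 0.32 log2 units (adjusted p = 0.00367, edgeR), with libraries that overlap. This call was lost without replicate 4 of the activated libraries (0.68, adjusted p = 0.0748, edgeR) or replicate 3 of the libraries without hk S.E. (0.85, adjusted p = 0.0228, edgeR). In Ahr-/- BMMs at 20 h the counts went from 31 without to 1 with hk S.E., and the fitted log2 fold change was -4.38 ± 0.78 (adjusted p = 2.32e-06, edgeR). The ratio of the pooled CPM without to with hk S.E. was 30.0 (95% exact counting interval 5.00 to 1222), and the fitted value is no bound. At 3 h the values were 0.97 (interval 0.20 to 1.73, adjusted p = 0.0230, edgeR) in Ahr+/+ BMMs, where the libraries did not overlap, and 0.42 (interval -0.53 to 1.38) in Ahr-/- BMMs.

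Tspan13, a tetraspanin and the member nearest to Ahr on the other side, had similar levels in both genotypes until 20 h of activation. In BMMs with DMSO alone at 20 h it stood at 17.2, 14.7, 10.9 and 13.8 CPM in Ahr+/+ and at 17.1, 13.4, 15.9 and 16.9 CPM in Ahr-/- libraries. After 20 h of activation the values were 6.51, 5.01, 2.26 and 5.73 CPM against 1.68, 1.05, 2.21 and 2.32 CPM, and they overlap through replicate 3 of the Ahr+/+ libraries. The genotypes were apart in 2 of 8 conditions, with BaP and with I3C at 20 h, and the log2 fold change between them ran from -1.83 with BaP at 20 h to 0.18 with DMSO alone at 3 h. Activation for 20 h changed Tspan13 by -1.54 ± 0.25 log2 units in Ahr+/+ (adjusted p = 4.37e-07, edgeR) and by -3.10 ± 0.28 in Ahr-/- BMMs (adjusted p = 1.21e-14, edgeR). At 3 h no change was called in Ahr+/+ (-0.23, interval -0.74 to 0.28) or Ahr-/- BMMs (-0.30, interval -0.80 to 0.20).

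Adi1, the methionine salvage enzyme, was the one member with higher means in Ahr-/- BMMs in all 8 conditions, and the difference was wide where activation had just begun. With DMSO alone at 3 h it stood at 28.8, 27.6, 24.5 and 30.1 CPM in Ahr+/+ and at 34.5, 30.0, 33.7 and 44.1 CPM in Ahr-/- libraries. After 3 h of activation the values were 6.47, 4.02, 4.78 and 5.69 CPM against 12.6, 11.3, 15.5 and 28.6 CPM. The genotypes did not overlap in the 3 activated conditions at 3 h, with log2 fold changes of 1.70 to 1.90, nor with DMSO alone at 20 h (0.54), and overlapped in the other 4 conditions, with 0.12 to 0.36. Adi1 fell at 3 h, with log2 fold changes of -2.41 ± 0.22 in Ahr+/+ (adjusted p = 3.68e-14, edgeR) and -1.07 ± 0.20 in Ahr-/- BMMs (adjusted p = 5.56e-06, edgeR). At 20 h it was back at 29.4, 25.0, 22.1 and 25.1 CPM in activated Ahr+/+ libraries, and the activation difference was -0.07 (interval -0.46 to 0.32). In Ahr-/- BMMs at 20 h it was -0.48 ± 0.19 (adjusted p = 0.0275, edgeR), which was called with the replicate block (adjusted p = 0.000820, edgeR).

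Arl4a, the ARF-like GTPase, rose sharply and briefly. At 3 h it stood at 8.28, 6.50, 5.28 and 6.88 CPM without and at 19.6, 25.8, 18.3 and 22.4 CPM with hk S.E. in Ahr+/+ libraries. In Ahr-/- libraries these were 8.39, 4.36, 5.99 and 6.55 CPM against 14.8, 11.0, 16.3 and 16.2 CPM. Libraries with and without hk S.E. did not overlap in either genotype, and the rise was 1.68 ± 0.15 log2 units in Ahr+/+ (adjusted p = 1.07e-14, edgeR) and 1.20 ± 0.15 in Ahr-/- BMMs (adjusted p = 4.01e-10, edgeR). At 20 h activated BMMs were at 5.11 ± 0.66 CPM (SD, n = 4) in Ahr+/+ and 5.71 ± 0.54 CPM in Ahr-/- libraries, and the log2 fold change with activation was -0.37 (adjusted p = 0.0257) and -0.47 (adjusted p = 0.00520) by edgeR. The call in Ahr-/- BMMs was lost, at adjusted p between 0.0104 and 0.0185, without any 1 of activated replicates 1, 2 and 3 or unactivated replicates 2 and 4. Between the genotypes Arl4a did not overlap in 5 of 8 conditions. It was lower in Ahr-/- BMMs in the 3 activated conditions at 3 h (-0.89 to -0.57) and with BaP at 20 h (-0.38), and higher with DMSO alone at 20 h (0.26).

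Hbp1, the transcriptional repressor, rose late. Without hk S.E. at 20 h it stood at 105, 124, 108 and 111 CPM in Ahr+/+ and at 105, 98.9, 132 and 138 CPM in Ahr-/- libraries. After 20 h of activation the values were 259, 264, 202 and 236 CPM against 131, 134, 194 and 202 CPM. The lowest Ahr+/+ library lay just above the highest Ahr-/- library, and both round to 202 CPM. The genotypes did not overlap in the 3 activated conditions at 20 h, with log2 fold changes of -0.71 to -0.54, and overlapped in the other 5. The rise with activation was 1.10 ± 0.14 log2 units in Ahr+/+ BMMs (adjusted p = 6.03e-10, edgeR), with no overlap, and 0.48 ± 0.14 in Ahr-/- BMMs (adjusted p = 0.00200, edgeR), where replicates 1 and 2 with hk S.E. lay within the range without it. Same-numbered Ahr-/- libraries deviate together at 20 h, and in 4 of 4 such pairs the library with hk S.E. was the higher. In the fit without a block, the call in Ahr-/- BMMs was lost, at adjusted p between 0.0119 and 0.0239, without any 1 of unactivated replicates 1 and 2 or activated replicates 3 and 4. At 3 h no change was called, with 0.12 (interval -0.16 to 0.39) in Ahr+/+ and -0.18 (interval -0.46 to 0.10) in Ahr-/- BMMs.

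**Figure D3:**
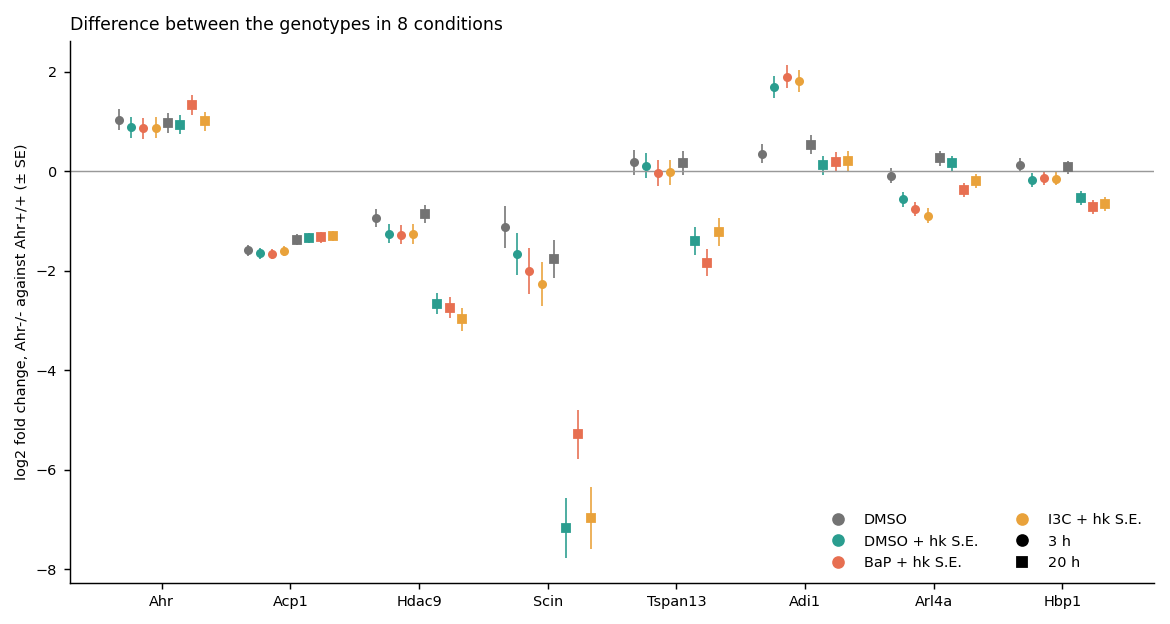
Log2 fold change of Ahr-/- against Ahr+/+ BMMs (y axis, ± SE) for Ahr and the 7 members in 8 conditions, with the treatment given by colour and the time by the symbol. Acp1 and Ahr form tight rows, at -1.66 to -1.30 and 0.86 to 1.33, while Scin runs from -7.17 to -1.12, with fitted values after 20 h of activation that rest on 1 to 5 counts.

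Whether the difference between the genotypes was the same in all conditions separates members with a constant offset from members whose difference moves. Over the 7 members and 8 conditions, 41 of 56 differences were lower in Ahr-/- BMMs. An F test of equal differences in all 8 conditions (edgeR) passed the threshold for 6 of 7 members, where 19.4% of all genes did. These are Scin (adjusted p = 8.96e-10), Hdac9 (adjusted p = 2.81e-10), Adi1 (adjusted p = 2.43e-08), Tspan13 (adjusted p = 2.51e-06), Arl4a (adjusted p = 1.95e-05) and Hbp1 (adjusted p = 0.000609). Acp1 was not called (adjusted p = 0.128), and neither was Ahr (adjusted p = 0.905). With the series of the library identifier as a covariate, Hbp1 was no longer called (adjusted p = 0.0181), and with the replicate block Acp1 was (adjusted p = 0.00540). The members were chosen from these same differences, so the counts of 41 and of 6 are not independent of the choice. A p above the threshold does not show that the Acp1 difference is constant, and its 8 log2 fold changes had an SD of 0.16.

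The activation step of this test was also read alone. At 20 h the response to hk S.E. was lower in Ahr-/- than in Ahr+/+ BMMs for 3 of 7 members, where 4.41% of all genes were called, 2.33% with a lower response. The differences that chose the genes enter this contrast too, so the count of 3 is not independent of the choice. The difference of the log2 fold changes was -1.79 ± 0.28 for Hdac9 (adjusted p = 1.15e-05, edgeR) and -1.56 ± 0.37 for Tspan13 (adjusted p = 0.00309, edgeR). For Scin the fitted difference was -5.40 ± 0.83 (adjusted p = 1.14e-05, edgeR), a size that rests on 1 count. Without the Ahr-/- library that holds this count, activated replicate 1, the fitted Scin difference was -6.86. The call of Tspan13 was lost without Ahr+/+ activated replicate 1 or 4 or Ahr-/- activated replicate 2 (adjusted p of 0.0102 to 0.0147) and in a fit of the compared groups alone (adjusted p = 0.0214). Hbp1 missed the threshold with -0.62 ± 0.19 (adjusted p = 0.0314, edgeR) and was called with the replicate block (-0.63, adjusted p = 0.000108, edgeR). At 3 h edgeR called 0 of 7 members and 0.0138% of all genes. DESeq2 called 1 member, and its share of all genes is not given here. An unadjusted p below 0.05 (edgeR) was held by 2 members and by 5.96% of all genes. The 2 were Adi1, with 1.34 ± 0.30 (adjusted p = 0.0624 by edgeR, adjusted p = 0.00550 by DESeq2, adjusted p = 0.000450 by edgeR with the replicate block), and Arl4a, with -0.48 ± 0.21 (adjusted p = 0.735, edgeR).

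Between 3 h and 20 h of activation, 5 of 7 members changed in Ahr+/+ BMMs (59.5% of all genes) and 6 of 7 in Ahr-/- BMMs (56% of all genes). The Ahr-/- libraries compared were all of 1 identifier series at 3 h and all of another at 20 h, so time and series cannot be told apart there. Adi1 rose by 2.28 and Hbp1 by 1.05 log2 units in Ahr+/+ BMMs, while Arl4a changed by -2.07, Tspan13 by -0.97 and Hdac9 by -0.80. The same 5 changed in the same directions in Ahr-/- BMMs, with 0.70 for Adi1, 0.68 for Hbp1, -1.35 for Arl4a, -2.48 for Tspan13 and -2.20 for Hdac9, and Scin was called lower (-4.76, on 1 count at 20 h). Without Ahr+/+ activated replicate 3 at 20 h the Tspan13 value was -0.73 (adjusted p = 0.0135, edgeR). The Adi1 call in Ahr-/- BMMs was lost without activated replicate 1, 2 or 3 at 3 h (0.49 to 0.62, adjusted p of 0.0146 to 0.0403, edgeR). Acp1 was not called in either genotype (-0.16 and 0.15).

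Genes of the same families were read from lists to see how common each response was. Of 4 class IIa deacetylases, Hdac9 was not called at 3 h while Hdac4, Hdac5 and Hdac7 fell in both genotypes, Hdac5 with log2 fold changes of -2.83 (Ahr+/+) and -2.89 (Ahr-/-). After 20 h Hdac5 and Hdac9 were the 2 that fell, Hdac5 with -1.30 and -1.74, and Hdac9 was the 1 of 4 whose response was called different between genotypes. Of 7 tested gelsolin family genes, 3 rose and 2 fell at 20 h in Ahr+/+ BMMs, and 2 rose and 3 fell in Ahr-/- BMMs. Gsn, gelsolin itself, fell in both genotypes (-2.42 and -2.27 log2 units) and Avil, advillin, rose (3.39 and 1.86), and Scin was the 1 called different between genotypes.

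Of 5 methionine salvage genes, Adi1 and Mri1 fell at 3 h in both genotypes, Mri1 with log2 fold changes of -1.33 in Ahr+/+ and -1.14 in Ahr-/- BMMs. The activation response at 20 h was higher in Ahr-/- than in Ahr+/+ BMMs for 2 of the 5, Mtap by 0.84 log2 units (adjusted p = 1.84e-06, edgeR) and Mri1 by 0.85 (adjusted p = 0.00961, edgeR), whereas the Adi1 value, -0.42, was not called (adjusted p = 0.415, edgeR). Enoph1 rose in Ahr-/- BMMs at 3 h (0.25) and in both genotypes at 20 h (0.26 and 0.36). Of the 3 ARL4 GTPases, Arl4a rose at 3 h, whereas Arl4c (-4.44 and -4.48) and Arl4d (-3.67 and -4.44) fell in Ahr+/+ and in Ahr-/- macrophages. Arl4c was called with both ligands at 3 h in Ahr+/+ BMMs, by 1.09 with BaP and 0.60 with I3C, and its BaP effect differed between the genotypes by -0.97 (adjusted p = 0.00711, edgeR). At 20 h with BaP, the salvage gene Mtap fell in Ahr+/+ BMMs (-0.41). No other gene of these 4 lists was called with a ligand in Ahr+/+ BMMs. With activation at 20 h in Ahr+/+ BMMs, list medians were -0.44 log2 units for the deacetylases and 0.22 for the gelsolin family. They were -0.07 for methionine salvage and -1.53 for the ARL4 GTPases, beside a median within 0.01 of 0 over all tested genes.

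The neighbourhood of Ahr was then compared with the rest of the genome. Of the 54 tested genes within 10 Mb, 21 (38.9%) were called between the genotypes in at least 1 condition, where 29.7% of all tested genes were. Without the members and Ahr the share was 13 of 46 (28.3%). Genes called in all 8 conditions in 1 direction numbered 15 of 14537, or 0.103%. Within 10 Mb of Ahr these were 3 of 54 (5.56%), namely Acp1, Hdac9 and Ahr itself, and on the rest of chromosome 12 they were 0 of 471. The other 12 lie on other chromosomes, among 14012 genes there, and are Wdfy1, Ccl7, Ccr7, Mrc1, Il1rn, Spint1, Gpnmb, Gdf3, Rab4a, Mmp8, Ccr1 and Gm6472. The members and the region were chosen on this contrast, so these shares are a description.

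**Figure D4:**
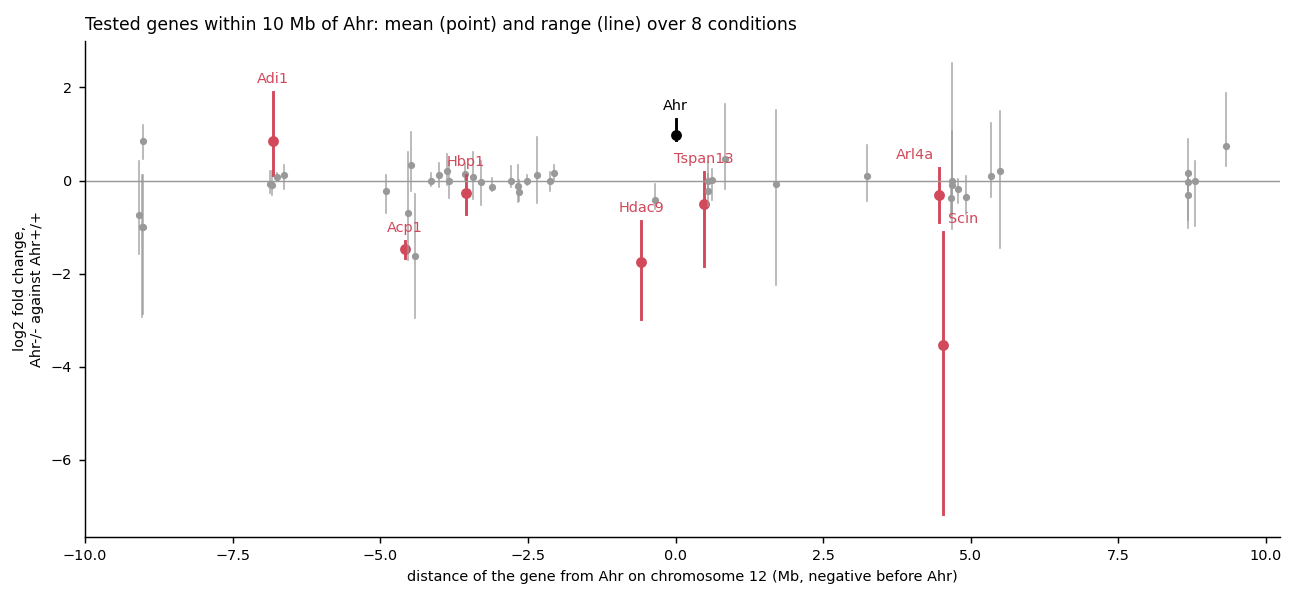
Mean (point) and range (line) over 8 conditions of the log2 fold change of Ahr-/- against Ahr+/+ BMMs (y axis) for the 54 tested genes within 10 Mb of Ahr, by their distance from Ahr in Mb (x axis), with the members in red and Ahr in black. Acp1 and Hdac9 lie below 0 over their whole range on one side of Ahr and Scin on the other, and genes with a mean near 0 lie between them. Fam110c and Snx13 before Ahr and Ifrd1 after it, which are not members, also lie below 0 over their whole range.

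Members lie on both sides of Ahr, and the order of distance is not the order of the difference. Acp1, 4.59 Mb away, had a mean log2 fold change of -1.48 over the 8 conditions and Scin, 4.52 Mb away, one of -3.53, while Tspan13, 0.480 Mb away, had one of -0.51. Adi1 is the member farthest from Ahr, at 6.82 Mb, with a mean of 0.85. Another 4 neighbours were each called in 3 of 8 conditions and were chosen after their values were seen. They are Fam110c (-2.96 to -0.28 log2 units), Rnf144a (-1.58 to 0.43) and the interferon-induced genes Rsad2 (-2.94 to 0.12) and Cmpk2 (-2.86 to 0.12).

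The genes whose level followed each member most closely over the 64 libraries were found by Pearson's r of log2 CPM, given as a description, since libraries share genotype, condition and depth. For Acp1 they were Spint1 (r = 0.878), a protease inhibitor, Mmp8 (0.849), a collagenase, and Ccr1 (0.828), a chemokine receptor. For Scin they were Mmp8 (0.871), Lmo2 (0.837) and Gpnmb (0.836), and for Hdac9 Gpnmb (0.892), Mmp27 (0.873) and Ahcyl2 (0.872). Spint1, Mmp8, Ccr1 and Gpnmb are all among the genes called between the genotypes in all 8 conditions, and they lie on chromosomes 2, 9, 9 and 6. For the members that follow the time of activation, the nearest were Nat2 (0.961) for Arl4a, Atg12 (0.953) for Hbp1, Itm2b (0.942) for Tspan13 and Orai3 (0.880) for Adi1.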

How the data were processed

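RNA of 64 BMM libraries was sequenced after poly(A) selection with a strand-specific kit. The authors aligned reads to mm10 with HISAT2 2.1.0 and counted them per gene with HTSeq 0.9.1 in its intersection-strict mode on the reverse strand, with the GENCODE M22 annotation. The deposited values are raw counts per gene and library. Read pairs in no gene (3.41 to 5.92%), not uniquely aligned (12.4 to 15.8%), ambiguous (1.06 to 1.61%), of low quality (0.831 to 5.63%) or not aligned (0.350 to 0.852%) were left out. Intersection-strict counting discards reads that leave a gene model, so levels depend on the annotation.

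Genes were filtered with filterByExpr at a minimum count of 10, which left 14537. Counts were scaled by TMM and tested with the quasi-likelihood test of edgeR 4.0.16 in R 4.3.3, with a mean per group over all 64 libraries, no replicate block and 48 residual degrees of freedom. Benjamini-Hochberg adjustment ran over all tested genes, with a threshold of 0.01. Log2 fold changes are those of the fit. For the correlations, log2 CPM used a prior count of 2. DESeq2 1.42.0, RLE size factors, no filter, a threshold of 0.05, the replicate number as a block, the identifier series as a covariate, fits of the compared groups alone, other windows around Ahr and removal of each library were the alternatives. The code was tested on simulated data. Positions came from a GRCm38 annotation of GENCODE, by gene ID, and 93 IDs had none.

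The members and gene lists were chosen with earlier results of these data known. The genes named by rule are the 7 members, Ahr, Ahrr, genes of the lists called in a comparison described, the 3 genes most correlated with each member, and genes of chromosome 12 called between the genotypes in all 8 conditions. The 12 genes so called on other chromosomes and the AhR target Nqo1 were named after their values were seen. Same-numbered libraries were taken as paired where the correlation of their deviations from group means was above 0.1 for every pair, which held in 5 of 6 comparisons within Ahr-/- BMMs (0.319 to 0.521 for activation at 20 h) and in 1 of 6 within Ahr+/+ BMMs. The main fit used no block even where this rule held, and the blocked results are given as an alternative. Intervals on counts cover counting error only, since reads carried no molecular identifiers.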

Additional observations from a re-analysis of the deposited data

Results flagged for a closer look

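Each group of 4 libraries was searched, for each of the 7 members, for a library that stood far from the other 3 (its gap to the nearest over the range of the group, above Dixon's 95% critical value). This picked 7 of 112 groups, and chance picks about 1 group in 20. For Scin, replicate 2 of Ahr+/+ BMMs with DMSO alone at 3 h held 0.652 CPM, against 0.395 to 0.438 CPM. Scin also stood at 0.0317 CPM in Ahr-/- replicate 1 with DMSO and hk S.E. at 20 h and at 0.0354 CPM in Ahr-/- replicate 2 with I3C at 20 h, each a single count where the other 3 libraries had 0. Hdac9 in Ahr-/- replicate 3 with DMSO and hk S.E. at 3 h was at 8.73 CPM, against 5.92 to 6.39 CPM.

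Adi1 in Ahr-/- replicate 4 with I3C at 20 h was at 32.5 CPM, against 28.4 to 28.7 CPM. Tspan13 stood low in a library of each genotype, at 2.63 CPM in Ahr+/+ replicate 3 with BaP at 20 h, against 6.84 to 6.94 CPM, and at 8.07 CPM in Ahr-/- replicate 1 with BaP at 3 h, against 10.1 to 10.3 CPM.

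The response to 20 h of activation differed between the genotypes, by the interaction test of edgeR, for Scin (-5.40 log2 units), Hdac9 (-1.79) and Tspan13 (-1.56). In these activated groups the identifier series and the genotype cannot be told apart.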

How the results depend on the processing

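No direction of a call reversed under any alternative. Shares of all genes called under each alternative are not given, so a gain or loss of calls is not read as particular to the members. With the replicate number as a block, 17 of 28 activation pairs were called against 13, gaining Acp1 and Arl4a in Ahr+/+ and Acp1 and Adi1 in Ahr-/- BMMs at 20 h. With the block, members called with a ligand in Ahr+/+ BMMs went from 0 to 1 (Arl4a with BaP at 20 h, adjusted p = 0.00653, edgeR), and members called for activation by genotype from 3 to 5, gaining Hbp1 at 20 h and Adi1 at 3 h. Genotype by condition was then called for 7 members, with Acp1 gained. In Ahr+/+ BMMs the libraries of that BaP comparison share only a number by the pairing rule (lowest correlation 0.0988), although 4 of 4 pairs correlated best with their own number, as did 23 of 24 over all Ahr+/+ comparisons. Removing 1 library at a time left 11 to 14 activation pairs, 10 to 11 time pairs, 2 to 3 activation by genotype pairs, 6 members for genotype by condition, 40 to 42 of 56 lower differences and 0 ligand calls. A threshold of 0.05 gave 19 activation pairs. Fits of the compared groups alone gave 13, of which 10 were shared. Scin in Ahr-/- BMMs at 20 h did not pass the filter there, Scin in Ahr+/+ (adjusted p = 0.0135, edgeR) and Hbp1 in Ahr-/- BMMs (adjusted p = 0.0693, edgeR) missed the threshold. Without a filter, Arl4a in Ahr-/- BMMs at 20 h was not called (adjusted p = 0.0105, edgeR). With the identifier series as a covariate, Adi1 between 3 h and 20 h in Ahr-/- BMMs was not called (adjusted p = 0.0337, edgeR). Windows of 5 and 20 Mb around Ahr held the same 3 genes called in all 8 conditions, 7.89% and 2.42% of those tested. The causes of these changes were not tested. Scin counts limit what can be read of it in Ahr-/- BMMs.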

Other observations

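Libraries with the same number moved together for some members. In Ahr-/- BMMs, replicates 3 and 4 both lay above replicates 1 and 2 in 7 of 8 groups for Acp1 and for Hbp1, and replicate 4 was the highest for Adi1 in 7 of 8 groups. In Ahr+/+ BMMs, replicate 3 was the lowest of its group in 8 of 8 groups for Tspan13, and in 6 of 8 for Scin and Arl4a. The labels do not say what a replicate number stands for.

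The 12 genes outside chromosome 12 that were called between the genotypes in all 8 conditions were read for size. The log2 fold change of Ahr-/- against Ahr+/+ BMMs was -6.06 to -3.97 for Spint1 and -5.29 to -2.26 for Mmp8, whereas it was 1.41 to 3.68 for Rab4a and 0.96 to 1.84 for Wdfy1. Acp1 had the narrowest range of the 15 such genes, 0.36 log2 units.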
